A study of Mus musculus with 2 samples.

Results

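The genes described here encode innate pattern recognition receptors and their adaptors, and they numbered 49 of the 43346 gene rows in the lung tables. They were chosen by name: protein-coding genes of the Toll-like receptor, NLRP and NAIP families, plus Nlrc3, Nlrc4, Nod1, Nod2, Nlrx1, Aim2, Pycard, Myd88, Tirap, Ticam1, Ticam2, Mavs, Cd14, Ly96, Clec7a and Clec4n. Clec7a was kept although the gene annotation classes it as a polymorphic pseudogene, a class for genes that are coding in some strains or individuals. The rule itself uses gene names and annotation class.

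RNA came from lung of C57BL/6J mice at 8 weeks of age, from littermates of mixed sex, with an unknown health state per the labels. Polyadenylated RNA was sequenced in 2 libraries, replicate 1 and replicate 2, which form 1 group. There is no control group, so every difference below is between these 2 libraries, and no p-value is given. The labels give the libraries separate tissue samples but 1 donor record and no number of animals, so the spread may be technical in part. The depth was 48234745 expected counts on gene rows for replicate 1 and 44182836 for replicate 2.

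Pattern recognition receptors bind molecules that microbes share and pass the signal through a small set of adaptors. Toll-like receptors sit on the cell surface or in endosomes and recruit adaptors with a TIR domain, while NOD-like receptors work in the cytosol and several of them build inflammasomes that activate caspases. In the lung these sensors are found in alveolar macrophages, other myeloid cells, the airway and alveolar epithelium and the endothelium. In bulk tissue, fewer cells of a type and less RNA per cell cannot be told apart.

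All 8 lung markers examined were above 1 TPM (a level scaled for transcript length and for the library's total) in both libraries, with a summed level of 153887 TPM in replicate 1 and 165388 TPM in replicate 2. Each library also held markers of other tissues. The 7 squamous epithelium markers summed to 4175 TPM in replicate 1 and 1.76 TPM in replicate 2, and the 6 skeletal muscle markers to 2807 and 56.9 TPM. The 8 intestinal epithelium markers summed to 19.6 TPM in replicate 1 and 162 TPM in replicate 2. The 10 neutrophil markers summed to 155 TPM in replicate 1 and 64.4 TPM in replicate 2, while the 8 alveolar macrophage markers summed to 834 and 674 TPM.

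Sequence determines how well close relatives can be counted apart, so the ends of their longest identical coding runs are shown first. Shared 76-base windows are not limited to these stretches. Tlr1 and Tlr6, which lie beside each other on chromosome 5 and encode partners of Tlr2, had coding sequences 74.4% identical, with 1 identical run of 229 bases. The end of that run and the bases after it are given 5′ to 3′ on the coding strand, which is the minus strand of mm10, from GENCODE transcripts, with the bases that differ in capitals. The Tlr1 stretch lies in exon 3 at chr5:64925477-64925596 and the Tlr6 stretch in exon 2 at chr5:64953768-64953887.
Tlr1-201: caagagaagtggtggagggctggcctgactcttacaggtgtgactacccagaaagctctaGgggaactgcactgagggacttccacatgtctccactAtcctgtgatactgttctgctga
Tlr6-201: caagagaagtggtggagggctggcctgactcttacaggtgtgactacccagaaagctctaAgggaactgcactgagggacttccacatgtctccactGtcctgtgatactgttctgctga
Over these 120 bases the copies differed at 2 positions. A 76-base read from the first 60 bases and upstream of them fits both genes.

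Naip5 and Naip6, sensors of bacterial flagellin in mouse, were closer still at 97.0% identity over the coding sequence, and their longest identical run was also 229 bases. The end of that run is shown for exon 9 of each gene, at chr13:100222101-100222220 and chr13:100299388-100299507 on the minus strand of mm10, with the base that differs in capitals.
Naip5-201: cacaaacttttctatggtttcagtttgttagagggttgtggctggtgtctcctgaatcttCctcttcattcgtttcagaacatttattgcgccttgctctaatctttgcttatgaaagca
Naip6-201: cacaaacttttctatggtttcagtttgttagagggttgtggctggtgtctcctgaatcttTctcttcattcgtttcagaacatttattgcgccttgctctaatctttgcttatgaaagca
These 120 bases differed at 1 position. Naip2 was 90.0% identical to Naip5, and Naip1 was 91.9% identical to it.

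The third sequence is the Clec7a exon that separates its main transcripts. Clec7a encodes dectin-1, a receptor for fungal beta-glucan. Exon 3 lies at chr6:129468869-129468993 on the minus strand of mm10, is 125 bases long and encodes the stalk between membrane and lectin domain. It is absent from the short transcript Clec7a-202.
Clec7a exon 3: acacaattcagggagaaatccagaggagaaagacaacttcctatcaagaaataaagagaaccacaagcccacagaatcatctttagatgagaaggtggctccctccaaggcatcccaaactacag

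Of the 49 members, 28 reached 1 TPM in both libraries, which is 57.1%, against 60.5% of 21474 protein-coding genes. A further 3 reached it in replicate 1 only, and 18 in neither. The members held 31025 counts in replicate 1 and 27937 in replicate 2, or 0.0643% and 0.0632% of the counts on gene rows. Their median level was 1.49 in replicate 1 and 1.20 in replicate 2 on the log2(TPM + 1) scale, a mean of 1.35 ± 0.204 (SD, n = 2 libraries). The median over protein-coding genes was 2.51 in replicate 1 and 2.17 in replicate 2. Both the share detected and the median include 11 NLRP genes with 0 counts in both libraries, described below. All 28 detected members were among the 38 with any count. With those 11 genes included, the typical member was thus a gene of low level. The summed level was held by few: the highest 3 members took 41.7% of the members' TPM in replicate 1 and 46.6% in replicate 2.

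**Figure D1:**
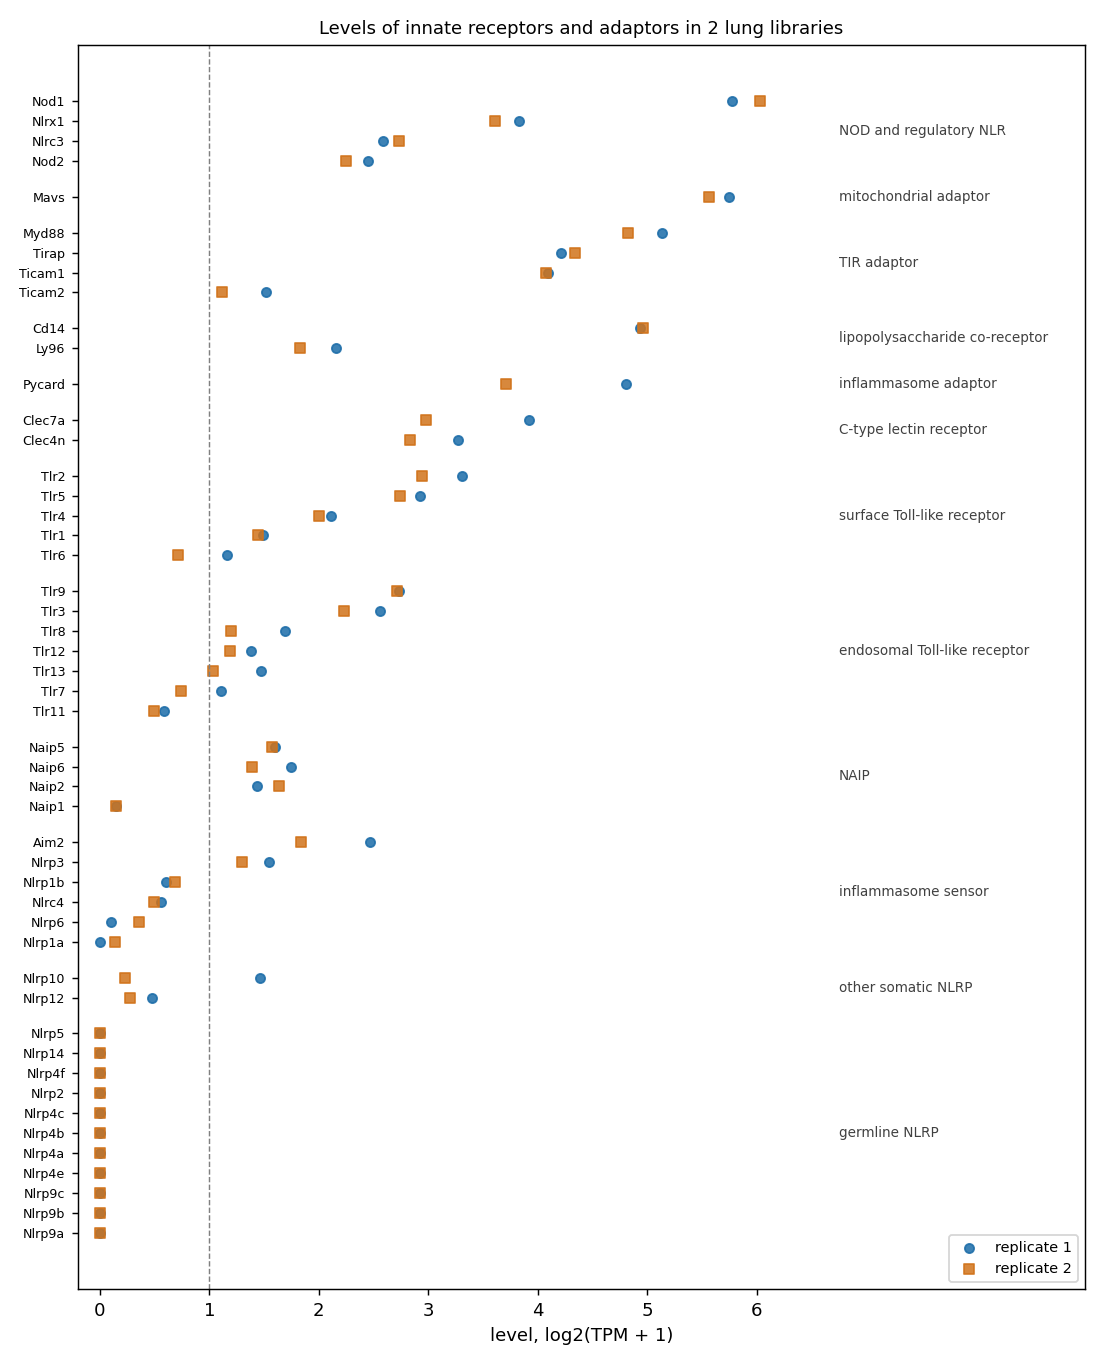
Levels of all 49 members on the log2(TPM + 1) scale, grouped by role, with replicate 1 as circles and replicate 2 as squares. The dashed line marks 1 TPM, and the 11 germline NLRP genes at the bottom are at 0 in both libraries.

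The cytosolic sensor Nod1 was the highest member. Nod1, a receptor for peptidoglycan fragments that carry diaminopimelic acid (chromosome 6, 54923949 to 54972612), had 53.67 TPM in replicate 1 and 64.49 TPM in replicate 2. Its level lay higher in replicate 2 by more than counting error, with a log2 count ratio of -0.49 for replicate 1 over replicate 2 and a fold of 0.711 (95% interval 0.690 to 0.733, counting error only). Nod2, the muramyl dipeptide receptor, had 4.45 TPM in replicate 1 and 3.76 TPM in replicate 2. On the TPM scale Nod1 therefore stood 12.1-fold above Nod2 in replicate 1 and 17.2-fold above it in replicate 2. Over protein-coding transcripts alone, a choice made after the data were seen, the ratios were 30.3 and 45.7, since most of the Nod2 TPM lies on a retained-intron transcript described below. Among the NLRs known as negative regulators, Nlrx1, which is found at mitochondria, had 13.23 TPM in replicate 1 and 11.18 TPM in replicate 2. Nlrc3 had 4.99 TPM in replicate 1 and 5.63 TPM in replicate 2.

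Adaptors made up much of the top of the order. Mavs, the mitochondrial adaptor of the RNA helicase sensors (chromosome 2, 131234063 to 131248025), had 52.86 TPM in replicate 1 and 46.36 TPM in replicate 2. Its counts differed little once scaled, at a log2 ratio of -0.04 that turns to 0.09 with library size scaling and 0.19 on TPM. Myd88, the adaptor of all Toll-like receptors but Tlr3, had 34.12 TPM in replicate 1 and 27.26 TPM in replicate 2, at a log2 count ratio of 0.10. Tirap, which bridges Myd88 to Tlr2 and Tlr4, had 17.54 TPM in replicate 1 and 19.27 TPM in replicate 2. Ticam1, the TRIF adaptor of Tlr3 and Tlr4, had 16.04 TPM in replicate 1 and 15.89 TPM in replicate 2. The bridging adaptor Ticam2 was far lower, with 1.86 TPM in replicate 1 and 1.17 TPM in replicate 2. In GENCODE M21 it shares 18.5% of its 76-base windows with Tmed7. Its expected counts were whole, at 141 in replicate 1 and 87 in replicate 2, so they show no split fragments. The quantified transcript was 2340 bases long, too short to hold the 4129 windows searched. What the sharing does to the Ticam2 level is therefore not known. Myd88 and Ticam1 stood above receptors they serve: the TPM of Myd88 was 3.84-fold that of Tlr2 in replicate 1 and 4.09-fold in replicate 2, and that of Ticam1 was 3.27-fold and 4.32-fold that of Tlr3.

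The lipopolysaccharide module was uneven. Cd14, which hands lipopolysaccharide to the receptor complex, had 29.63 TPM in replicate 1 and 30.18 TPM in replicate 2. Tlr4 itself had 3.33 TPM in replicate 1 and 3 TPM in replicate 2, and Ly96, the MD-2 protein that binds lipopolysaccharide beside it, had 3.46 TPM in replicate 1 and 2.54 TPM in replicate 2. Cd14 was thus 8.9-fold above Tlr4 in replicate 1 and 10.1-fold above it in replicate 2, and the ratio of Ly96 over Tlr4 was 1.04 and 0.847. The tables place 16.5% of the Tlr4 TPM in replicate 1 and 38% in replicate 2 on the processed transcript Tlr4-203, on 5.90 and 11.8 counts. Over protein-coding transcripts alone Cd14 was 10.7-fold and 16.2-fold above Tlr4, and Ly96 over Tlr4 was 1.20 and 1.27, so which of Ly96 and Tlr4 was higher in replicate 2 depends on that transcript. The Ly96 values rest on 53 counts in replicate 1 and 38 in replicate 2, under the count filter used below, whereas Cd14 had 1458 and 1450.

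Of the 12 Toll-like receptors, 9 reached 1 TPM in both libraries, and the 12 summed to 39.7 TPM in replicate 1 and 31.7 TPM in replicate 2. Among those of the cell surface, Tlr2, which senses lipoproteins, had 8.88 TPM in replicate 1 and 6.67 TPM in replicate 2. Tlr5, the flagellin receptor, had 6.61 TPM in replicate 1 and 5.70 TPM in replicate 2. Tlr1 had 1.81 TPM in replicate 1 and 1.72 TPM in replicate 2. These 3 kept the same order in both libraries. Among the endosomal receptors, Tlr9, which senses DNA with unmethylated CpG, had 5.63 TPM in replicate 1 and 5.56 TPM in replicate 2. Tlr3, the receptor for duplex RNA, had 4.91 TPM in replicate 1 and 3.68 TPM in replicate 2. The RNA sensor Tlr8 had 2.22 TPM in replicate 1 and 1.30 TPM in replicate 2. Tlr12 and Tlr13, mouse receptors without a functional human counterpart, had ranges that overlap that of Tlr8. Tlr13, which senses bacterial ribosomal RNA, had 1.78 TPM in replicate 1 and 1.05 TPM in replicate 2. Tlr12, a sensor of Toxoplasma profilin, had 1.60 TPM in replicate 1 and 1.28 TPM in replicate 2. Tlr6 and Tlr7 passed 1 TPM in replicate 1 alone. Tlr6 had 1.24 TPM there against 0.64 TPM in replicate 2, and Tlr7 had 1.16 TPM against 0.67 TPM in replicate 2. By the posterior mean, a second TPM estimate, Tlr7 had 2.04 TPM in replicate 1 and 1.57 TPM in replicate 2. Over protein-coding transcripts alone Tlr8 had 2.03 TPM in replicate 1 and 0.89 TPM in replicate 2. For Tlr7 and Tlr8, detection thus depends on the estimate used. Tlr11 stayed below 1 TPM in both.

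The C-type lectin receptors are the sensors of fungal cell walls among the members. Clec7a had 14.16 TPM in replicate 1 and 6.86 TPM in replicate 2, on 575 and 286 counts. Clec4n, which encodes the mannan receptor dectin-2, had 8.65 TPM in replicate 1 and 6.14 TPM in replicate 2. The Clec7a count ratio was 1.68 (1.45 to 1.94, counting error only), or 0.74 on the log2 scale. The Clec4n ratio was 1.19 (0.999 to 1.42), an interval that includes no difference. The neutrophil list moved in the same direction, with 7 of 8 members past the count filter higher in replicate 1 and 3 of them 2-fold. Of the other myeloid lists, 5 of 8 alveolar macrophage, 4 of 10 monocyte and interstitial macrophage and 1 of 8 dendritic cell markers were higher in replicate 1. The medians of their log2 ratios were 0.11, -0.05 and -0.27. Of the lymphoid lists, 5 of 6 B cell and 4 of 5 T cell markers were higher in replicate 1. Over all genes past the filter, 50.2% were higher in replicate 1 and 4.45% were 2-fold higher. The part of these lists in the Clec7a difference was not tested.

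Among inflammasome genes the adaptor was far above the sensors. Pycard, the ASC adaptor that links sensors to caspases (chromosome 7), had 27.05 TPM in replicate 1 and 12.05 TPM in replicate 2, on 1168 and 508 counts. The libraries stood further apart for Pycard than for any other member at 10 TPM or more in both, with a count ratio of 1.92 (1.73 to 2.13) and a log2 ratio of 0.94, just under the 2-fold mark. Aim2, the sensor of cytosolic DNA, had 4.53 TPM in replicate 1 and 2.57 TPM in replicate 2. Nlrp3, which responds to many kinds of cell damage, had 1.91 TPM in replicate 1 and 1.46 TPM in replicate 2. Pycard was 14.2-fold above Nlrp3 on the TPM scale in replicate 1 and 8.25-fold above it in replicate 2. Of the NAIP proteins, which detect flagellin or secretion system proteins for Nlrc4, Naip5 had 2.04 TPM in replicate 1 and 1.97 TPM in replicate 2. Naip6 had 2.35 TPM in replicate 1 and 1.62 TPM in replicate 2, and Naip2 had 1.71 TPM in replicate 1 and 2.10 TPM in replicate 2. Their shared partner Nlrc4 was lower, at 0.47 TPM in replicate 1 and 0.41 TPM in replicate 2, so that Naip5 stood 4.34-fold and 4.80-fold above it.

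Along the order of mean TPM over the 28 detected members, the ranges of the 2 libraries overlapped for 19 of the 27 pairs of neighbours. Most neighbouring ranks are thus not separated by these libraries. The ranges of Nod1, Mavs and Myd88 at the top did not overlap, but in replicate 1 the deposited bounds of Nod1 (51.9 to 54.3 TPM) and Mavs (50.9 to 53.9 TPM) did.

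The remaining members had little or no RNA. The 11 NLRP genes known for roles in germ cells and early embryos (Nlrp2, Nlrp4a, Nlrp4b, Nlrp4c, Nlrp4e, Nlrp4f, Nlrp5, Nlrp9a, Nlrp9b, Nlrp9c and Nlrp14) had 0 counts in both libraries, which allows up to 3 counts in each. Of 6 oocyte markers, 0 reached 1 TPM in both libraries and Oosp1 and Figla were also at 0. The other members under 1 TPM in both were Nlrp1a, Nlrp1b, Nlrp6, Nlrp12, Nlrc4, Naip1 and Tlr11, at 0 to 0.52 TPM in replicate 1 and 0.10 to 0.61 TPM in replicate 2.

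A difference between the libraries was described for the 32 members whose counts averaged 50 or more, as the log2 ratio of scaled counts, replicate 1 over replicate 2. Nlrp10 was the 1 member 2-fold higher in replicate 1, and 0 were 2-fold higher in replicate 2. That is 3.12% of the members past the filter, against 6.66% of 14708 genes past it, with 4.45% higher in replicate 1 and 2.21% higher in replicate 2. At any size, 21 of the 32 were higher in replicate 1, which is 65.6% against 50.2% of all genes past the filter, and 11 were higher in replicate 2. The median log2 ratio was 0.10 over the members and 0.0022 over all genes past the filter. Their median distance from 0 was 0.25, against 0.28 for all genes, so the typical member lay about as far apart between libraries as other genes. On TPM with a pseudocount of 0.1 the same split was 26 of 32, against 68.9% of all genes past the filter. By role, 9 of the 11 Toll-like receptors past the filter were higher in replicate 1 with TMM, DESeq2 or library size scaling and 11 on TPM. With TMM, the members that leaned to replicate 2 most were Naip2 at -0.52, Nod1 at -0.49 and Nlrc3 at -0.39.

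**Figure D2:**
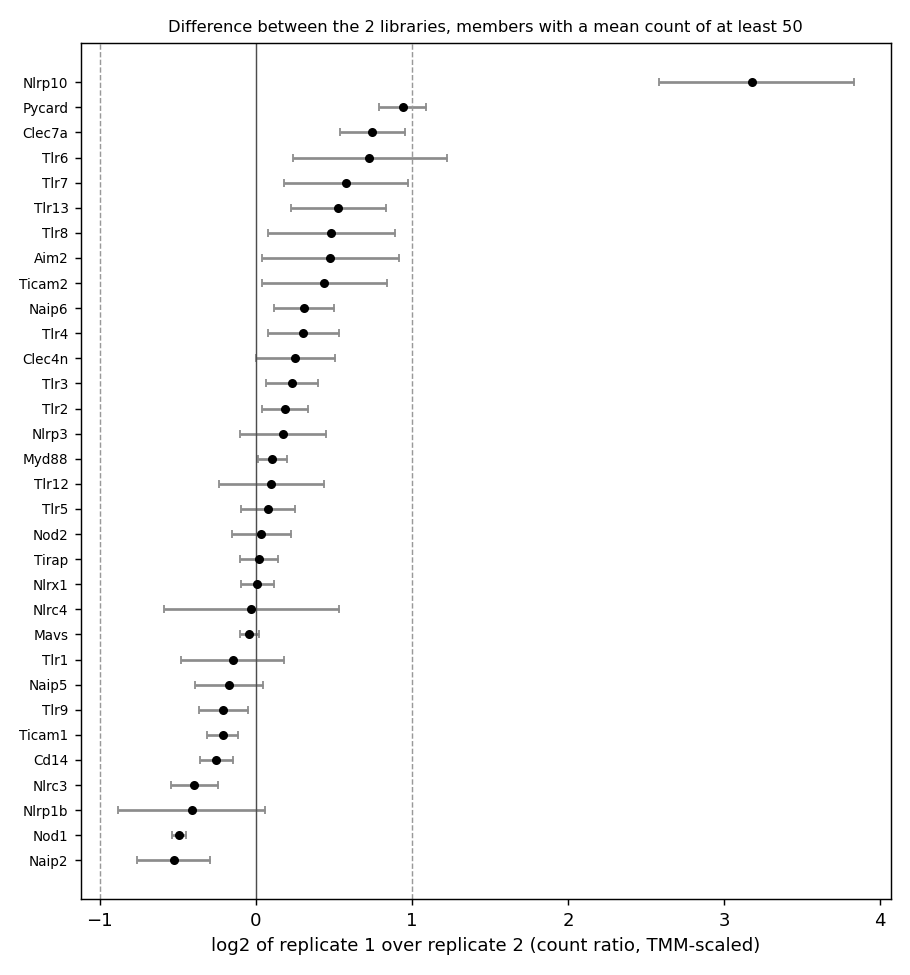
Count ratio of replicate 1 over replicate 2 on a log2 axis for the 32 members whose counts averaged 50 or more, with 95% intervals that cover counting error only. The ratios are plotted without a prior count, so Nlrp10 lies slightly above its printed 3.09, and the dashed lines mark 2-fold.

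Nlrp10, an NLR without leucine-rich repeats that is known from skin, had 271 counts in replicate 1 against 25 in replicate 2, or 1.76 TPM and 0.17 TPM. The ratio was 9.04-fold (6.00 to 14.2, counting error only), with a log2 value of 3.09. All 7 squamous epithelium markers past the count filter were 2-fold higher in replicate 1, at 6.50 to 1725 TPM in replicate 1 and 0 to 0.70 TPM in replicate 2. Their part in the Nlrp10 difference was not tested. Nlrp6, an NLR known from the intestinal epithelium, ran the other way with 10 counts in replicate 1 and 42 in replicate 2, or 0.07 TPM and 0.28 TPM. It lies under the count filter and is named after its values were seen. Its ratio of replicate 2 over replicate 1 was 5.03 (2.49 to 11.3, counting error only). All 7 intestinal markers past the filter were 2-fold higher in replicate 2, and their part in the Nlrp6 difference was not tested. Nlrp1a, also named after its values were seen, had 0 counts in replicate 1 and 12 in replicate 2, and the exact 95% interval of its ratio, replicate 2 over replicate 1, began at 3.33.

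**Figure D3:**
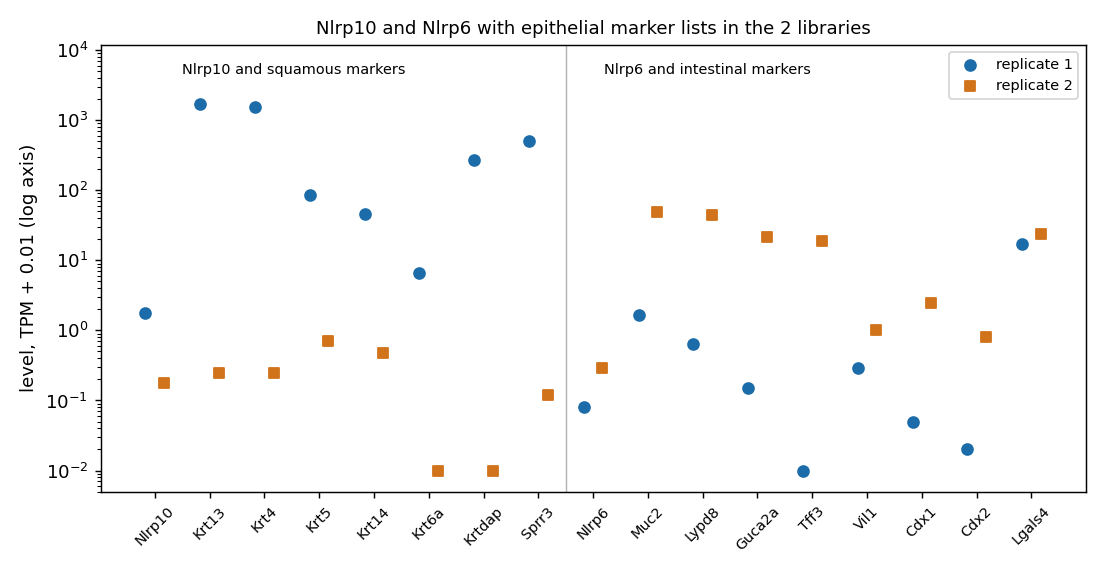
Levels in TPM + 0.01 on a log axis for Nlrp10 with the 7 squamous markers on the left and Nlrp6 with the 8 intestinal markers on the right, with replicate 1 as circles and replicate 2 as squares. Nlrp10 and every squamous marker are higher in replicate 1, and Nlrp6 and every intestinal marker are higher in replicate 2.

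In GENCODE M21, shared sequence touched 18 members, and for 31 every 76-base window of the main transcript occurred in no other gene. The share of windows found elsewhere was 23.5% for Naip5, 20.9% for Naip1, 12.4% for Tlr1, 11.9% for Naip6, 10.9% for Naip2 and 9.33% for Tlr6. These windows are of GENCODE M21 transcripts, and some of those are longer than the ones quantified. Tlr6-201 had 3602 windows, but its quantified transcript was 2603 bases long. The shares in the quantified sequence can therefore differ. Of the 38 members with any count, 8 had an expected count that was not whole within 0.005 in at least 1 library, namely Ticam1 and Tlr12 (both in replicate 2 only), Tlr1, Tlr6, Naip1, Naip2, Naip5 and Naip6. The other 30 had whole expected counts. Summing the relatives removes the splitting between them, but it also evens out any true difference between the genes. The sums therefore cannot tell misassigned fragments from a true difference. Tlr1 and Tlr6 together summed to 267 counts in replicate 1 and 202 counts in replicate 2, with a ratio of 1.10 (0.915 to 1.33) or 0.14 on the log2 scale, against log2 ratios of 0.71 for Tlr6 alone and -0.15 for Tlr1 alone. The 5 Naip genes, pseudogene Naip3 included, summed to 1240 counts in replicate 1 and 1079 in replicate 2, at a log2 ratio of -0.06, although Naip2 alone stood at -0.52.

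**Figure D4:**
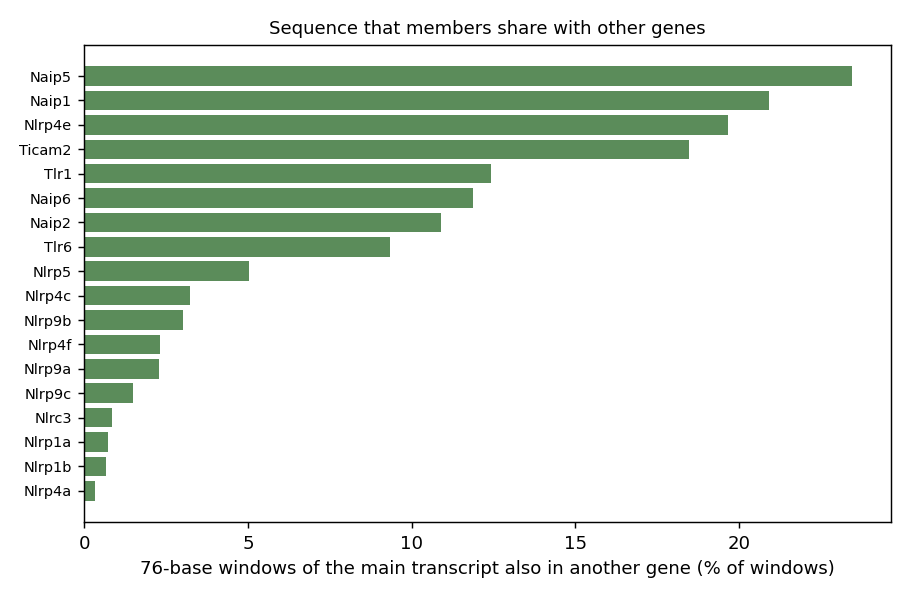
Percent of 76-base windows in the GENCODE M21 main transcript of each of the 18 members with shared windows that also occur in a transcript of another gene. The shares in the transcripts as quantified can differ. Naip5 has the highest share at 23.5%, and the bars of Tlr1 and Tlr6 reach 12.4% and 9.33%.

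The transcript tables divide each gene's level among annotated transcripts. Among the 21 detected members with more than 1 transcript, 19 had the same main transcript in both libraries, against 84.8% of 9846 genes treated alike. All TPM of Nod1 was on Nod1-201 and all of Cd14 on Cd14-201. Myd88-201 held 94.2% of the Myd88 TPM in replicate 1 and 96.1% of it in replicate 2, and Mavs-201 held 73.5% and 70.4%. Tirap was split: its short transcript Tirap-202 took 56.8% of the TPM in replicate 1 and 66.0% in replicate 2, although Tirap-201, the long one, held 68.5% and 51.2% of the counts. Tlr5-204 led Tlr5 with 46.5% in replicate 1 and 53.2% in replicate 2.

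By share of TPM Clec7a was led in both libraries by Clec7a-202, the short transcript that lacks the exon shown above. It had 59.97% in replicate 1 and 56.4% in replicate 2, and the protein it encodes was not examined. By share of counts, which are not scaled for length, it held 26.5% in replicate 1 and 23.7% in replicate 2, and the long transcripts held the rest. The long transcripts differed between libraries. Clec7a-204, annotated as a polymorphic pseudogene, had 345.19 counts in replicate 1 and 0 in replicate 2. Clec7a-201, a transcript of nearly the same length at 2277 bases against 2272, had 77.15 counts in replicate 1 and 218.18 in replicate 2. The split between these long transcripts was estimated by the authors' quantifier.

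Further transcript values were chosen after they were seen. The retained-intron transcript Nod2-204 held 60.3% of the Nod2 TPM in replicate 1 and 62.5% in replicate 2, on 231.77 and 198.41 counts. The highest share of Aim2 was on Aim2-201, a processed transcript of 372 bases, with 41.2% in replicate 1 and 33.9% in replicate 2, on 11 and 5 counts. Its coding transcript Aim2-204 held 71.95% of the counts in replicate 1 and 66.6% in replicate 2. The main transcript changed between libraries for Tlr3, where Tlr3-202 held 49.8% in replicate 1 and 80.05% in replicate 2, and for Tlr8. In Tlr8 the leading transcript of replicate 1, Tlr8-203, rested on 8.54 counts there and 1.49 in replicate 2.

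**Figure D5:**
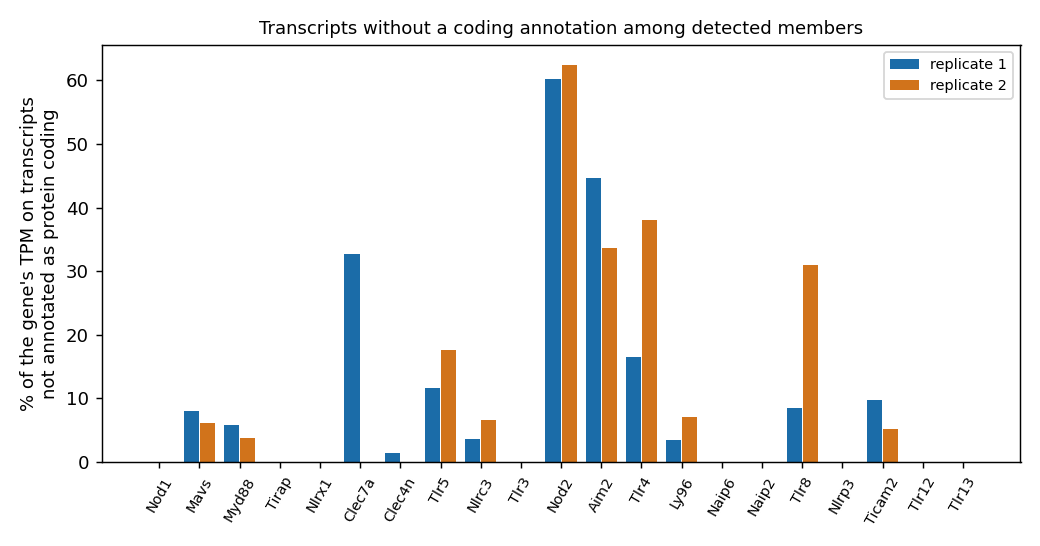
Percent of each detected multi-transcript member's TPM that the tables place on transcripts not annotated as protein coding, with replicate 1 left of replicate 2 for each gene. Nod2 is above 60% in both libraries, and Clec7a has 32.7% in replicate 1 and 0% in replicate 2.

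Promoter sequence was compared with level because promoters rich in CpG are typical of broadly used genes, while PU.1 is a transcription factor of myeloid cells. RefSeq promoters of GRCm38.p6, from 250 bases before to 50 after the start, were matched for 41 of the 49 members, giving 52 promoters. The promoter of the highest member, Nod1 (of its annotated promoters the one with most CpG), at chr6:54972563-54972862 on the minus strand, and that of Mavs, at chr2:131233813-131234112 on the plus strand, are shown with each CpG in capitals.
Nod1 promoter: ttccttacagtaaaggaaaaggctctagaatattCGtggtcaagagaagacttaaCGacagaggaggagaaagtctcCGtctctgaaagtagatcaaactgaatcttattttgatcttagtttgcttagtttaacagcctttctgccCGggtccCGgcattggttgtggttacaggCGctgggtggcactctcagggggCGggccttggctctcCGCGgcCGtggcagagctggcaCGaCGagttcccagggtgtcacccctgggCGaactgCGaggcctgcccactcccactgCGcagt
Mavs promoter: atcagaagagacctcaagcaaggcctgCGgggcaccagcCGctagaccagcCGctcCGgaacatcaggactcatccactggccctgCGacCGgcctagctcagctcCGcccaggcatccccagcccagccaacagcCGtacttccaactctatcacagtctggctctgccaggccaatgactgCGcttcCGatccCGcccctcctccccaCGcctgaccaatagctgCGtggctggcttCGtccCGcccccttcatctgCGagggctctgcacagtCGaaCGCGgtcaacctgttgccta
The Nod1 promoter held 15 CpG and the Mavs promoter 19. At least 10 CpG were found in 8 member promoters, or 15.4%, against 43.5% of 32851 promoters, and the median was 5 against 7. These 8 promoters belonged to 7 genes, of which 5 were among the 8 matched members at 10 TPM or more in the mean and 2 among the 33 below it. The same split by level was not made over all genes, so whether it is particular to the members is not known.

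The PU.1 motif was searched as GAGGAAGT on both strands, so that ACTTCCTC marks a match on the reverse strand. It was found in 8 member promoters of 8 genes, or 15.4%, against 3.20% of all 32851. Of these genes, 4 were among the 23 matched members detected in both libraries (Pycard, Tlr9, Aim2 and Tlr1) and 4 among the 18 others (Nlrp1a, Nlrp1b, Tlr11 and Nlrp4c). The Nlrp1a and Nlrp1b promoters are closely similar in sequence, so their matches are not independent of each other. The shorter sequence GAGGAAG, which every match of the longer one contains, was in 21.2% of member promoters and 13.6% of all. Among the 13 promoters of 10 germline NLRP genes, 1 held it and 0 had 10 or more CpG. The promoters of Pycard, at chr7:127993818-127994117 on the minus strand, and Tlr9, at chr9:106222348-106222647 on the plus strand, are shown with the match in capitals.
Pycard promoter: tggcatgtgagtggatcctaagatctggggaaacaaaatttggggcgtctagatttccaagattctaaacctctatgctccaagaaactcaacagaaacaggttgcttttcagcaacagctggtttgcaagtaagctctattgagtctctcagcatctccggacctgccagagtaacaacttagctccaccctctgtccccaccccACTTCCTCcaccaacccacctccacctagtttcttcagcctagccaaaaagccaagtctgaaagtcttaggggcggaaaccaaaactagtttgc
Tlr9 promoter: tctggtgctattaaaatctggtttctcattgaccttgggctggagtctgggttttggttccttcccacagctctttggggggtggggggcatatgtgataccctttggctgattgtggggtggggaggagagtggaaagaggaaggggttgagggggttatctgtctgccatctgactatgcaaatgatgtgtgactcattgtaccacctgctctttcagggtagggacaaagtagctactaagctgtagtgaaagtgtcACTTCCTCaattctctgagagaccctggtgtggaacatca
A match describes the letters only and is no measure of binding.

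Downstream of the receptors, 79 of 85 listed signalling genes reached 1 TPM in both libraries, against 60.5% of 21474 protein-coding genes. The list was chosen with earlier results of these data known. The highest by mean TPM were Txnip, an Nlrp3 interactor, at 713 TPM in replicate 1 and 643 TPM in replicate 2, the lysosomal protease gene Ctsb at 190 and 166 TPM, and Unc93b1, which carries endosomal Toll-like receptors to their compartment, at 153 TPM in both. Irak1, the kinase that Myd88 recruits, had 134 TPM in replicate 1 and 167 TPM in replicate 2. Each of these 4 stood above the highest member in both libraries.

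Of the 81 listed genes past the count filter, 2 were 2-fold higher in replicate 1 and 0 in replicate 2, and 37 were higher in replicate 1 at any size (58 on TPM), with a median log2 ratio of -0.03. Over all genes past the filter, 4.45% were 2-fold higher in replicate 1, 2.21% in replicate 2, and 50.2% were higher in replicate 1 at any size (68.9% on TPM), so these counts lie near or under the background. The 2 genes were both of the inflammasome effector list. Il1b, an inflammasome cytokine, had 239 counts in replicate 1 and 96 in replicate 2, at 6.27 and 2.92 TPM and a ratio of 2.08 (1.63 to 2.66), or 1.04 on the log2 scale. Il1rn, which encodes the interleukin-1 receptor antagonist, had 697 counts in replicate 1 and 249 in replicate 2, at 12.4 and 4.37 TPM and a ratio of 2.34 (2.02 to 2.71), or 1.22 on the log2 scale. Within that class 8 of 11 were higher in replicate 1 with TMM scaling, 6 with DESeq2 size factors and 9 on library size or TPM. For the 14 NF-kB genes the number was 5 with TMM, 8 with library size and 10 on TPM, and for the 15 Toll-like receptor signalling genes it was 6, 10 and 11, so that the side to which these classes lean depends on the scaling. Among markers past the count filter, most of several lists were higher in replicate 1, as Il1b and Il1rn were. These were 7 of 8 neutrophil, 7 of 7 squamous, 6 of 6 skeletal muscle, 5 of 6 B cell and 4 of 5 T cell markers. Alveolar macrophage markers stood at 5 of 8 and monocyte and interstitial macrophage markers at 4 of 10. Dendritic cell markers stood at 1 of 8, lung markers at 0 of 8 and intestinal markers at 0 of 7. The part of these lists in the Il1b and Il1rn differences was not tested.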

How the data were processed

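Per the labels, polyadenylated RNA above 200 nt was sequenced as stranded pairs of 76 nt with spike-ins, from 2 lung libraries of 1 group; the replicate numbers are those of the labels. Per the file headers, the deposited expected counts are estimated numbers of fragments for each gene and transcript and need not be whole, the deposited TPM and FPKM values are scaled for length and library total, and the deposited percent is each transcript's share of its gene's TPM. The deposited signal columns give a lower and an upper bound for TPM, and the level of that interval is not stated. A TPM value can lie outside its bounds. Tlr7 had 1.16 TPM in replicate 1 with bounds of 1.20 and 3.22, and 0.67 TPM in replicate 2 with bounds of 0.72 and 2.78. Per the deposited file lists the build is mm10 with GENCODE M4; the sources used here do not name the quantifier. Contig and junction lists on mm9 were not used here.

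Symbols came from GENCODE M21 on the same build, which matched 42462 of 43346 gene rows. Expected counts were rounded. Log2 ratios are replicate 1 over replicate 2 of TMM-scaled CPM with a prior count of 2, from edgeR 4.0.16 in R 4.3.3. DESeq2 1.42.0 gave the alternative scaling. Folds are count ratios over the scaled library sizes with exact Clopper-Pearson 95% intervals, which cover counting error only; reads carry no molecular identifiers. Detection meant 1 TPM or more in both libraries, and a 2-fold difference needed a mean count of at least 50. Windows of 76 bases were searched on the sense strand of all GENCODE M21 transcripts. Python 3.11.15 was used for the rest. Steps were tested on simulated counts.

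Members and lists were chosen with earlier results of these data known. Every member could be named; downstream genes were named for the 4 highest levels or a 2-fold difference, and transcripts for the 4 highest members and for those at 5 TPM or more whose main transcript changed or held under 60%. Protein sequences were not used here. Alternatives covered thresholds, scaling, pseudocounts, count filters, FPKM and leaving out a library.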

Additional observations from a re-analysis of the deposited data

Results flagged for a closer look

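Pseudogenes whose names match the families but whose class keeps them out of the 49 genes also took counts, which passed the 3 counts that a count of 0 allows in both libraries for Naip3, in replicate 1 for Nlrp5-ps and in replicate 2 for Nlrp1c-ps. Naip3 had 20.41 expected counts in replicate 1 and 6.14 in replicate 2. Nlrp5-ps had 17.71 in replicate 1 and 2 in replicate 2. Nlrp1c-ps had 0 in replicate 1 and 9 in replicate 2. Nlrp4d and Nlrp4g, the other pseudogenes of these names, had 0 counts in both libraries.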

How the results depend on the processing

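With 5 TPM as the threshold, 13 members were detected in place of 28, and the main transcript was shared for 8 of 8 members in place of 19 of 21. Leaving out a library gave 28 to 31 members detected and a median level of 1.20 to 1.49. The median level was 0.71 with a pseudocount of 0.1 and 1.12 on FPKM. The number of members 2-fold apart was 1, against 2 with library size scaling, 3 with TPM and a pseudocount of 0.1, 2 with a mean count of at least 10 and 3 with no count filter. Pycard passed 2-fold under library size scaling (log2 1.07) and on TPM (1.16), and Clec7a on TPM (1.03). Relative to TMM, these scalings moved the median of all genes by 0.13 and 0.20 on the log2 scale. The number of members higher in replicate 1 was 21 of 32 with TMM, 20 with DESeq2 size factors, 23 with library size and 26 on TPM, against 50.2%, 48.7%, 63.4% and 68.9% of all genes. Ratios, 2-fold counts and shared main transcripts cannot be had from 1 library. No paired analysis was possible because the libraries form 1 group.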
